A study of Mus musculus with 3 samples.

Results

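The genes described here are 33 genes that act in glycolysis or are known to be induced when oxygen is low, followed across the cell classes of the mouse brain after a transient ischemic attack (TIA). They were taken from a written list by their symbols, and all 33 were found among the 32285 genes of the count matrices. By role they fall into 4 groups. The group of hypoxia-inducible factors and prolyl hydroxylases has 4 genes, that of glycolytic enzymes 13, that of lactate, pyruvate and control of glycolytic flux 5, and that of other hypoxia-inducible genes 11.

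The study asked how brain cells change after a brief ischemia, and occluded the middle cerebral artery (MCA) of mice for 5 min with a filament passed through the carotid artery. All animals were WT mice of the strain C57BL6J, and the study describes them as male. The naive group had no occlusion, and the other groups were taken 24 h and 3 d after TIA, from the ipsilateral hemisphere. The labels call these groups stroke, whereas the series text calls the procedure TIA. Since the controls were naive, effects of surgery and anesthesia cannot be told apart from those of the occlusion. Cells were freed with papain from tissue without white matter or meninges, and those that excluded propidium iodide were sorted as live.

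Each group is a pool of 3 mice and 1 library of the 10x Genomics 3′ assay, which tags each captured transcript with a unique molecular identifier (UMI). The naive library held 37987228 UMIs in 4804 barcodes, the 24 h library 12919691 UMIs in 1619 barcodes, and the 3 d library 48636436 UMIs in 5505 barcodes. Cells with at least 500 genes and at most 7% mitochondrial UMIs were kept, which left 4018, 1225 and 4781 cells with a median of 7750, 8123 and 7868 UMIs. The naive library shared 3 barcodes with the 24 h library and 8 with the 3 d library, and the TIA libraries shared 4.

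Clusters were drawn from the kept cells from every library, with names given by fixed markers of 18 cell types. The clusters carried the markers of microglia, astrocytes, oligodendrocytes, endothelial cells, pericytes, neurons and dividing neural progenitors, and are called by these names in the sense of microglia-like, astrocyte-like and so on. The microglia numbered 986, 273 and 1210 cells in the naive, 24 h and 3 d libraries, and the astrocytes 894, 238 and 1427. There were 232, 72 and 250 oligodendrocytes, 287, 229 and 591 endothelial cells, and 159, 182 and 327 pericytes. The pericyte cluster passed 10 pericyte markers, but also 5 markers of fibroblasts and 4 of smooth muscle cells. It may thus be a mixture of such cells, and its makeup in each library was not examined. The cluster with neuronal markers held 768, 109 and 363 cells and is called neuron-like. Adarb2 and Prokr2 were among its leading genes. The progenitor markers in it summed to 750, 765 and 787 UMIs among 1000000, with Dlx1 the most abundant at 410, 435 and 443. How mature these cells are was not examined, so their values should not be read as those of mature cortical neurons. Neural progenitors held 197, 38 and 187 cells, and were compared only at 3 d because a class needed at least 50 cells in both libraries. The largest share of naive astrocytes lay in a cluster that had Aldoc among its leading genes (49.2%), while another cluster held the largest share at 24 h (56.3%) and at 3 d (53.2%). Among microglia, a cluster led by the immune genes Ccl12, Ccl2 and Tnf made up 11.7% of naive cells, 24.2% at 24 h and 21.5% at 3 d. Not compared were a cluster of low depth (458 cells), a cluster with leading genes of macrophages (302) and fibroblasts (23). A mixed cluster led by haemoglobin genes that the markers name red blood cells (222) was also left out. Of these clusters, all but the fibroblasts had over 50 cells in the naive and 3 d libraries. The own markers of a class summed to 30950, 27090 and 27470 UMIs among 1000000 in microglia, 9050, 10300 and 9301 in neuron-like cells, where 1 of 13 was at 0 in the naive and 24 h libraries, and 3712, 3295 and 4077 in progenitors.

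Glycolysis splits glucose into pyruvate, which is either burned in mitochondria or turned into lactate. When oxygen is scarce, the alpha subunits of the hypoxia-inducible factors (HIF) are no longer hydroxylated by prolyl hydroxylases, escape degradation, and switch on genes for glucose use, blood vessel growth and removal of mitochondria. In the brain, astrocytes are regarded as strongly glycolytic, and endothelial cells pass glucose from the blood to the tissue.

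For each class and library, UMIs were summed over cells and scaled to a total of 1000000 (CPM). A change is the log2 ratio of CPM after TIA to the naive CPM. With 1 library per group there were no replicates and no test, so every interval given is a 95% interval of counting error only, and both TIA libraries were set against the same naive library. A gene was measured where both sums together held at least 50 UMIs, and is called higher or lower where it differed at least 1.5-fold. A difference past this limit in 1 class and not in another was not tested as a difference between classes. Numbers of alternatives given beside a gene leave out the stricter limits of 100 UMIs and 2-fold, which drop genes by construction, and a value from an alternative that left fewer than 50 UMIs is given as such.

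Of 339 measured pairs of gene and comparison, 31 were higher after TIA, 17 were lower, and 291 differed by less than 1.5-fold. A further 70 pairs had fewer than 50 UMIs, and 19 were at or under 3 UMIs in both libraries. For 1 more pair no bound could be given. No change past 1.5-fold was seen for 10 members, namely Hif1a, Egln1, Egln3, Gpi1, Pfkl, Gapdh, Pgam1, Slc16a3, Bnip3l and Ndufa4l2.

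At 24 h, microglia had 4 of 24 measured members higher, against 7.59% of all measured genes, and 2 lower, against 4.99%. Astrocytes had 4 of 27 higher, against 8.6%, and 0 lower, against 12%. Oligodendrocytes had 1 of 23 higher and 1 lower, against 9.3% and 12.6% of all genes. Endothelial cells had 3 of 24 members higher, against 7.71%, and 1 lower, against 7.39%. In pericytes, 2 of 22 were higher, against 7.84%, and 1 was lower, against 6.17%. The neuron-like cells went the other way, with 0 of 26 higher, against 4.03%, and 8 lower, against 14.6%. With each cluster given the same weight in every library, microglia had 0 of 24 higher, against 6.93%, and with cells weighted equally 1 of 24, against 7.5%. With cells weighted equally, pericytes had 1 of 22 higher, against 8.65%, and oligodendrocytes had 3 of 23 higher and 2 lower, against 11.0% and 13.6%. With called doublets left out, neuron-like cells had 3 of 23 lower, against 9.41%. Without the 20% of cells highest in other classes' markers, 2 of 21 were lower there, against 9.36%, and 1 was higher, against 4.57%.

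At 3 d, endothelial cells had 5 of 29 measured members higher, against 9.5% of all genes, and 1 lower, against 4.24%. Oligodendrocytes had 4 of 27 higher, against 9.07%, and 1 lower, against 3.43%. For microglia the counts were 2 of 28 higher, against 4.0%, and 1 lower, against 2.19%. Astrocytes had 1 of 30 higher and 0 lower, against 3.81% and 2.76%. Pericytes had 3 of 26 higher, against 13.1%, and 0 lower, against 4.84%. None of the 26 members measured in neuron-like cells passed 1.5-fold, against 1.87% of all genes higher and 4.89% lower. Neural progenitors had 2 of 27 higher, against 4.6%, and 1 lower, against 2.99%. Without the 20% of cells highest in other classes' markers, oligodendrocytes had 0 of 23 higher, against 6.31%, and 3 lower, against 4.16%, and microglia had 1 of 25 higher, against 4.32%. At resolution 0.2, progenitors had 1 of 27 higher, against 4.47%, and 4 lower, against 3.4%. The higher count rose to 4 of 25, against 5.26%, with called doublets left out and to 4 of 27, against 6.27%, with cells weighted equally. It was 3 of 23, against 4.78%, without the 20%. With cells weighted equally, pericytes had 0 of 26 higher, against 12.2%. Endothelial cells then had 3 of 29 higher, against 9.41%, and 2 lower, against 4.52%. Without the 20%, endothelial cells had 3 of 26 higher, against 8.22%, and 2 lower, against 4.54%.

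**Figure D1:**
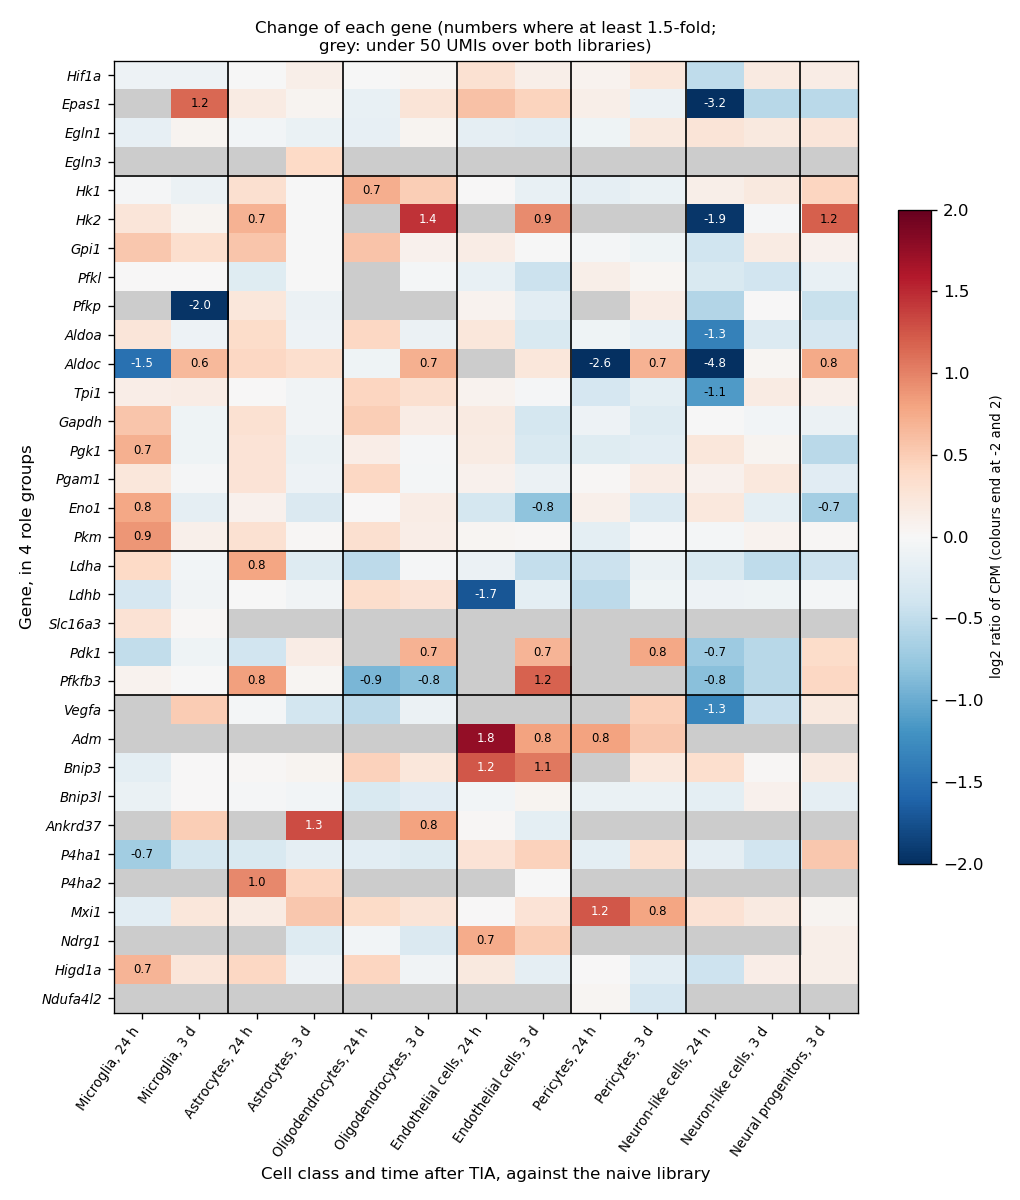
Log2 ratio of CPM of each of the 33 genes (vertical axis) in each cell class and time after TIA against the naive library (horizontal axis), with numbers where the change was at least 1.5-fold and grey where fewer than 50 UMIs were present. Endothelial cells were higher in Adm and Bnip3 at both times, and blue cells gather in neuron-like cells at 24 h.

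Among the regulators, Hif1a encodes the oxygen-sensitive alpha subunit of HIF-1. Its naive level was highest in microglia (125 CPM, 117 to 133), and the other classes lay between 58.6 CPM in oligodendrocytes and 94.7 CPM in endothelial cells. After TIA, Hif1a mRNA in microglia was 116 CPM at 24 h and 116 CPM at 3 d. Over all 13 comparisons its log2 ratio ran from -0.51 in neuron-like cells at 24 h to 0.31 in endothelial cells at 24 h.

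Epas1 encodes the HIF-2 alpha subunit, which is known from blood vessels. It was a vascular gene here as well, at 981, 1467 and 1329 CPM in naive, 24 h and 3 d endothelial cells, and at 669, 725 and 616 CPM in pericytes. Astrocytes held 103, 115 and 107 CPM, while microglia held 2.04, 2.92 and 4.53 CPM. The endothelial change stayed just under the limit, with log2 ratios of 0.58 (0.48 to 0.68) at 24 h and 0.44 (0.35 to 0.53) at 3 d. In microglia the low level was higher at 3 d by 1.15 (0.30 to 2.07), from 16 UMIs in naive cells and 45 at 3 d. The summed level of 10 endothelial markers in microglia was 41.6, 32.8 and 69.1 CPM, with 8 of 10 higher at 3 d, although Pecam1, the most abundant, was at 25.2, 13.5 and 19.9 CPM, and their part in the result was not tested. In the microglia with at most 1 UMI of other classes' markers, the log2 ratio of Epas1 was 0.43, from fewer than 50 UMIs, and the gene fell under that minimum in 4 of 11 alternatives.

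Counted together, Hif1a and Epas1 gave each class its own mixture. The share of Hif1a among the UMIs of both genes was 98.4% (97.4% to 99.1%) in naive microglia, 41.4% (39.0% to 43.9%) in astrocytes, and 8.81% (7.42% to 10.4%) in endothelial cells. At 24 h these shares were 97.6%, 38.5% and 7.39%, and at 3 d they were 96.2%, 42.3% and 7.17%. Shares of 2 genes depend on how well each is captured, so that the order of classes is described and not the amount of either gene against the other.

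The prolyl hydroxylases mark HIF for degradation when oxygen is present. Egln1 was highest in endothelial cells, at 116, 103 and 101 CPM, and lowest in astrocytes, at 39.9, 38.4 and 36.4 CPM. Its log2 ratio lay between -0.21 and 0.25 in the 13 comparisons. Egln3, which is itself a known HIF target, was rare. It reached 50 UMIs only in astrocytes at 3 d, where 2.83 CPM stood against 2.14 CPM in naive cells.

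Of the 13 glycolytic enzymes, hexokinases trap glucose in the cell as glucose 6-phosphate. Hk2 belonged to microglia, with 464.5, 552 and 484 CPM in the naive, 24 h and 3 d libraries, and its naive level there was 27.7 times that of astrocytes, the class with the next highest level. Hk1 was highest in naive astrocytes (70.9 CPM, 65.5 to 76.7), followed by pericytes (59.4, 43.0 to 80.0) and endothelial cells (58.1, 46.1 to 72.2), whose intervals overlapped. The share of Hk1 among Hk1 and Hk2 UMIs was 4.13% in naive microglia and 80.9% in naive astrocytes. Microglia had the lowest Hk1 share of all classes in each of the 3 libraries.

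Aldolase C, known as a marker enzyme of astrocytes and of Purkinje cells, showed the same kind of contrast. Aldoc was at 1611, 2153 and 2030 CPM in astrocytes, and the next highest naive level, 104 CPM in pericytes, was 15.6 times lower. The astrocyte log2 ratio was 0.42 (0.38 to 0.46) at 24 h and 0.33 (0.31 to 0.36) at 3 d, both under 1.5-fold. Aldoa, the form that most tissues use, was highest in pericytes, at 578, 543 and 521 CPM, and was at 47.8, 18.8 and 39.5 CPM in neuron-like cells, the lowest class in the naive and 24 h libraries. A second annotated copy of Aldoa held only 16, 1 and 25 UMIs over all cells, against 6780, 3351 and 9094 for the copy used.

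Phosphofructokinase commits sugar to glycolysis, and its subunits differed by class. Pfkp was highest in astrocytes, at 132, 154.5 and 122 CPM, and Pfkl in endothelial cells, at 89.7, 81.1 and 66.5 CPM. The Pfkl share among both was 18.5% in naive astrocytes, 19.6% in neuron-like cells, 82.2% in endothelial cells and 87.5% in microglia. In microglia Pfkp was lower at 3 d by a log2 ratio of -1.96 (-2.95 to -1.06), from 43 UMIs in naive cells and 14 at 3 d, and 5 cells held 74.4% of the naive UMIs. Without the 5 cells with most Pfkp UMIs in each library, the value was -0.99, from fewer than 50 UMIs, and the gene fell under that minimum in 3 of 11 alternatives. Neuronal markers in microglia were at 55.3, 28.1 and 31.6 CPM in sum, with 10 of 13 lower at 3 d, while astrocyte markers were at 385, 446 and 485 CPM, with 10 of 12 higher. Their part in the result was not tested.

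The other enzymes were present in every class. Gpi1, which converts glucose 6-phosphate, was level in naive astrocytes (134 CPM), pericytes (133) and endothelial cells (127), with overlapping intervals, and lowest in neuron-like cells (30.3). Tpi1 ranged from 29.8 CPM in neuron-like cells to 193 CPM in pericytes. Gapdh ranged from 250 CPM in endothelial cells to 778 CPM in neural progenitors. The kinase Pgk1 ran from 34.7 to 98.4 CPM and the mutase Pgam1 from 58.7 to 116.5 CPM, both lowest in neuron-like cells and highest in progenitors. Eno1, the enolase of most cells, was highest in astrocytes (264 CPM) and lowest in oligodendrocytes (28.3 CPM). Pkm, pyruvate kinase, was highest in pericytes (292 CPM, 254 to 334) and endothelial cells (225 CPM, 200 to 251). In the naive library, the neuron-like cells were the lowest class for 6 of the 13 enzymes, namely Aldoa, Gpi1, Tpi1, Pgk1, Pgam1 and Pkm. Gapdh and other members of this group have processed copies in the genome, and Eno1 has a near-identical copy that held 49, 17 and 90 UMIs against 3845, 1538 and 4681, so that their values are uncertain by what the counting split between copies.

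**Figure D2:**
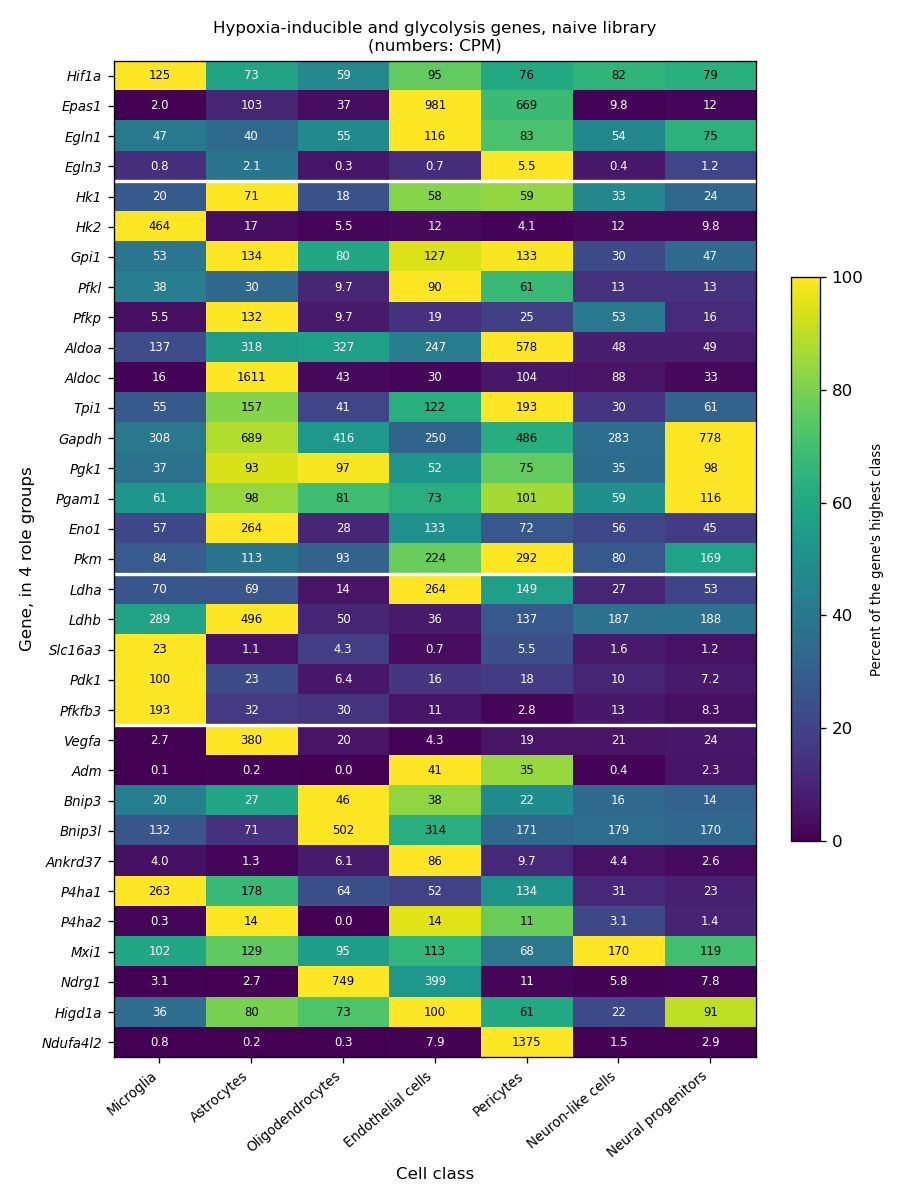
Level of each of the 33 genes (vertical axis) in each cell class (horizontal axis) of the naive library, with CPM printed and colour giving the percent of the gene's highest class. Ndufa4l2, Hk2, Vegfa and Aldoc each stood at least 15.6 times above the next class, in pericytes, microglia and astrocytes.

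In microglia at 24 h, 3 enzymes of the later steps were higher. Pkm was at 83.9 CPM in naive microglia, 154.5 CPM at 24 h and 90.1 CPM at 3 d, with a log2 ratio of 0.88 (0.70 to 1.06) at 24 h. Eno1 was at 57.5, 98.1 and 50.9 CPM, with 0.77 (0.55 to 0.99). Pgk1 was at 36.7, 60.1 and 34.6 CPM, with 0.71 (0.43 to 0.99). The 24 h library stood above the other libraries for each of these enzymes, and at 3 d the levels were back within 1.5-fold of naive. Gapdh, at 308, 455 and 292 CPM, and Gpi1, at 52.8, 76.5 and 66.4 CPM, had 24 h log2 ratios of 0.56 and 0.54, under the limit. Pgam1, which acts between Pgk1 and Eno1, had 0.23 (-0.02 to 0.47), at 61.3, 71.8 and 60.5 CPM. Tpi1 was at 0.14, Pfkl at 0.005 and Hk1 at -0.02.

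Some alternatives brought these microglial values under the limit. At 24 h the 5 cells with most UMIs of the gene held 25.5% of Pkm, 29.1% of Pgk1 and 15.6% of Eno1 UMIs. Without such cells in each library, the 24 h log2 ratio was 0.57 for Pkm and 0.36 for Pgk1, while Eno1 was at 0.66. With each microglial cluster given the same weight in every library, the ratios were 0.48 for Pkm, 0.32 for Pgk1 and 0.57 for Eno1. With each cell weighted equally, they were 0.15 for Pgk1 and 0.51 for Eno1, with Pkm at 0.60. Without the 20% of cells highest in other classes' markers, they were 1.01 for Pkm, 0.85 for Eno1 and 0.85 for Pgk1. All of these values lay above 0.

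Astrocytes at 24 h were higher in Hk2, at 16.7, 27.1 and 16.6 CPM in the naive, 24 h and 3 d libraries, with a log2 ratio of 0.69 (0.28 to 1.10). The 24 h library was again the highest of the 3. Microglial markers in astrocytes moved the other way, at 990, 384 and 700 CPM in sum, with 11 of 12 lower at 24 h. With called doublets left out, the Hk2 log2 ratio was 1.64, and it was 1.64 without the 20% of cells that held the largest share of other classes' markers. Of the 13 enzymes measured in astrocytes at 24 h, 12 had a ratio above 0, against 5979 of all 11574 measured genes. Their median log2 ratio was 0.30, against 0.02 over all genes. Microglia had 10 of 12 above 0, against 6028 of 10584, oligodendrocytes 9 of 10, against 3837 of 8025, and endothelial cells 9 of 11, against 3528 of 7181. Pericytes had 3 of 11, against 2977 of 5929, and neuron-like cells 4 of 13, against 4658 of 10006.

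Oligodendrocytes were higher in Hk1 at 24 h, at 17.6, 29.1 and 24.7 CPM, with a log2 ratio of 0.73 (0.08 to 1.36). Hk2 was at 5.47, 9.99 and 14.9 CPM and was higher at 3 d by 1.45 (0.65 to 2.31). Aldoc was at 43.4, 40.8 and 70.9 CPM and was higher at 3 d by 0.71 (0.40 to 1.02). Both genes belong mostly to other classes, Hk2 to microglia and Aldoc to astrocytes. In oligodendrocytes, 12 of 12 microglial markers were higher at 3 d, at 529, 537 and 847 CPM in sum. Of the astrocyte markers, 11 of 12 were higher at 3 d, at 450, 187 and 709 CPM in sum, led by Slc1a3. Their part in the result was not tested. Without the 20% of cells highest in such markers, the 3 d log2 ratio was 0.20 for Hk2 and 0.40 for Aldoc, leaving out called doublets gave 0.67 for Hk2, and leaving out its 5 highest cells gave 2.13. These values of Hk2 come from fewer than 50 UMIs.

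Endothelial cells at 3 d were lower in Eno1, which was at 133, 105 and 76.7 CPM, with a log2 ratio of -0.80 (-1.09 to -0.51). The level descended from naive to 24 h to 3 d, and the ratio stayed past 1.5-fold in all 9 alternatives. Neural progenitors were also lower in Eno1 at 3 d, with 45.5 CPM in naive cells and 28.5 CPM at 3 d and a ratio of -0.67 (-1.04 to -0.31), which was -0.55 without the 20% of cells highest in other classes' markers. Hk2 in endothelial cells was at 12.2, 0.78 and 23.4 CPM, with a 3 d ratio of 0.94 (0.15 to 1.80). The summed microglial markers there were 1050, 388 and 1530 CPM, with 12 of 12 lower at 24 h and 11 of 12 higher at 3 d. The endothelial ratio of Hk2 turned to -0.91 with called doublets left out, to -0.90 under a literal reading of the cell filter, which drops only cells that fail both limits, to -0.92 without the 20% of cells highest in other classes' markers and to -0.33 with cells weighted equally, and was 0.57 at resolution 0.2. The first 3 of these come from fewer than 50 UMIs, and so few were also left without the 5 highest cells.

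Progenitors were higher in Hk2 at 3 d, with 9.78 CPM in naive cells, 22.3 CPM at 3 d and a ratio of 1.19 (0.59 to 1.81) that passed 1.5-fold in all 9 alternatives. Microglial markers in progenitors were 452 CPM in naive cells and 398 CPM at 3 d. Aldoc was at 33.1 CPM in naive progenitors and 56.0 CPM at 3 d, with a ratio of 0.76 (0.42 to 1.10). Of the astrocyte markers, 11 of 12 were higher there at 3 d, at 874 and 1240 CPM in sum, and 5 cells held 79.1% of the naive Aldoc UMIs. The progenitor ratio of Aldoc was 0.29 under the literal cell filter, -0.08 at resolution 0.2 and 2.54 without called doublets. It was 1.97 without the 20% of cells highest in other classes' markers and 1.48 without the 5 highest cells.

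In pericytes and microglia, Aldoc was lower at 24 h and higher at 3 d than in the naive library. Pericytes held 104, 16.8 and 168 CPM, with log2 ratios of -2.63 (-3.48 to -1.86) at 24 h and 0.70 (0.32 to 1.09) at 3 d. Microglia held 16.4, 5.83 and 25.7 CPM, with -1.50 (-2.35 to -0.74) and 0.64 (0.33 to 0.96). In each, the 24 h library was the lowest and the 3 d library the highest. The astrocyte markers in pericytes were at 1360, 813 and 2280 CPM in sum, with 10 of 12 lower at 24 h, and 11 of 12 higher at 3 d. The most abundant of them, Atp1b2, went the other way at both times, at 640, 658 and 480 CPM. In microglia they were at 385, 446 and 485 CPM, with 8 of 12 lower at 24 h and 10 of 12 higher at 3 d, while Slc1a3, the most abundant, was at 268, 319 and 333 CPM. Their part in the result was not tested. In pericytes 5 cells held 84.0%, 82.4% and 64.1% of the Aldoc UMIs, and without called doublets the 24 h ratio was -0.47, or -1.26 without the 20% of cells highest in other classes' markers, both from fewer than 50 UMIs, and fewer than 50 were also left without the 5 highest cells. The 3 d ratio was 0.27 with cells weighted equally and 1.88 without the 5 highest cells, and fewer than 50 UMIs were left without the 20%. The microglial 3 d ratio was 0.38 in cells with at most 1 UMI of other classes' markers (fewer than 50 UMIs of Aldoc), 0.54 with cells weighted equally and 0.58 with median-ratio scaling.

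The neuron-like cells at 24 h held the largest number of lower members, 8 of 26, against 14.6% of all genes. With called doublets left out 3 of 23 were lower, against 9.41%. Without the 20% of cells highest in other classes' markers 2 of 21 were, against 9.36%. Of the 8 lower members, 4 were glycolytic enzymes. Aldoc was at 87.6, 3.13 and 89.6 CPM in the naive, 24 h and 3 d libraries, with a log2 ratio of -4.81 (-7.09 to -3.25) at 24 h. Hk2 was at 11.99, 0.0 and 11.8 CPM, or 66, 0 and 37 UMIs, and was at least 3.83-fold lower when the 24 h library is set to 3 UMIs. Aldoa was at 47.8, 18.8 and 39.5 CPM, with -1.35 (-2.13 to -0.66), and Tpi1, the isomerase of the triose phosphates, at 29.8, 13.6 and 33.5 CPM, with -1.14 (-2.08 to -0.32). The 24 h library was the low one each time, with naive and 3 d levels close to each other.

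Epas1 in these cells was at 9.81, 1.04 and 6.70 CPM, with a 24 h ratio of -3.23 (-8.56 to -0.70), and Vegfa at 20.5, 8.34 and 15.0 CPM, with -1.30 (-2.55 to -0.27). Pfkfb3 was at 13.1, 7.30 and 8.93 CPM, with -0.84 (-2.21 to 0.27), and Pdk1 at 10.4, 6.25 and 7.02 CPM, with -0.73 (-2.23 to 0.48). The intervals of Pfkfb3 and Pdk1 included 0. Aldoc, Hk2, Epas1, Vegfa, Pfkfb3 and Pdk1 all had far higher naive levels in another class than in these cells.

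Markers of those other classes were lower in the same comparison. The astrocyte markers were at 1210, 313 and 1040 CPM in sum, with 12 of 12 lower at 24 h, 2 of them at 0, and Slc1a2 the most abundant. The microglial markers were at 924, 173 and 713 CPM, with 11 of 12 lower. Endothelial markers were at 134, 11.5 and 21.0 CPM and pericyte markers at 64.9, 11.5 and 31.6 CPM, with 10 of 10 lower for each and 3 and 6 of them at 0. Their part in the result was not tested. Hk2, Epas1 and Vegfa fell under 50 UMIs both with called doublets left out and without the 20% of cells highest in such markers, and Pfkfb3 and Pdk1 did so in the latter. Under the latter, Aldoc was at -2.17, Hk2 at -0.06, Tpi1 at -0.57, Pfkfb3 at -0.40, Pdk1 at -0.48, Epas1 at 0.12 and Vegfa at 0.99. With doublets left out, Hk2 was at -0.38, Pfkfb3 at -0.36, Pdk1 at -0.52, Epas1 at -1.74, Aldoc at -1.92 and Vegfa at 0.77. Aldoa stayed past the limit in both.

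Other alternatives moved the same genes of neuron-like cells. Aldoa was at -0.43 under the literal cell filter and at -0.39 at resolution 0.2. Aldoc was at -0.59 and -0.62 there, and Vegfa at -0.15 and -0.23. Without the 5 cells with most UMIs of the gene, Hk2 was at -0.67 and Epas1 at -0.48, while Pdk1 was at -2.95, Pfkfb3 at -3.00, Vegfa at -3.58 and Aldoc at -3.98. Of these, Hk2, Epas1, Pdk1 and Pfkfb3 had fewer than 50 UMIs left. With cells weighted equally, Aldoc was at -2.66, Epas1 at -3.96 and Pfkfb3 at -0.21, and Epas1 was at -2.24 with members left out of the variable features.

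The lactate dehydrogenases interconvert pyruvate and lactate, and the A and B subunits are known for favouring opposite directions. Ldha was highest in endothelial cells, at 264, 244 and 189 CPM, and lowest in oligodendrocytes, at 14.3, 9.99 and 14.1 CPM. Ldhb was highest in astrocytes, at 496, 496 and 472 CPM, and lowest in endothelial cells, at 35.9, 10.9 and 31.4 CPM. The Ldha share among both genes was 88.0% (84.5% to 91.0%) in naive endothelial cells, 52.2% (45.1% to 59.1%) in pericytes, 19.6% (18.2% to 21.1%) in microglia and 12.2% (11.3% to 13.2%) in astrocytes. It was 12.6% in neuron-like cells, 21.9% in progenitors and 22.1% in oligodendrocytes, so that the vascular classes stood above all others.

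Astrocytes were higher in Ldha at 24 h, at 69.2, 120 and 58.1 CPM in the 3 libraries, with a log2 ratio of 0.79 (0.60 to 0.99) that passed 1.5-fold in all 10 alternatives. Their Ldha share went to 19.5% (17.7% to 21.4%) at 24 h and was 11.0% (10.3% to 11.7%) at 3 d, so that the 24 h interval lay above both others. The microglial share was also highest at 24 h, with 28.9% (25.9% to 32.0%) at 24 h and 19.8% (18.4% to 21.1%) at 3 d, although the microglial ratio of Ldha was 0.40, under the limit. In endothelial cells Ldhb was lower at 24 h by a ratio of -1.72 (-2.69 to -0.84), from 50 UMIs in naive cells and 14 at 24 h, and at 3 d the ratio was -0.19. The astrocyte markers in endothelial cells were at 400, 159 and 335 CPM in sum, with 11 of 12 lower at 24 h and Slc1a2 leading. Their part in the result was not tested. The ratio stayed past 1.5-fold in the 7 of 9 alternatives that left at least 50 UMIs, and the gene would not be measured with a minimum of 100 UMIs.

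Slc16a3, the lactate exporter known as MCT4, was a microglial gene, at 22.7, 27.7 and 23.1 CPM, and its next highest naive class, pericytes, was at 5.53 CPM. Pdk1, the kinase that keeps pyruvate out of mitochondria, was also highest in microglia, at 100, 71.4 and 94.5 CPM, with a 24 h ratio of -0.49, under the limit. At 3 d Pdk1 was higher in pericytes by 0.78 (-0.13 to 1.79), at 18.0, 17.7 and 30.9 CPM, in oligodendrocytes by 0.70 (-0.12 to 1.55), and in endothelial cells by 0.68 (-0.04 to 1.44). All of these intervals included 0. With cells weighted equally none of the 3 passed the limit, at 0.57, 0.54 and 0.11. The oligodendrocyte value was 0.43 under the literal cell filter, and the endothelial value 0.56 with doublets left out and 0.58 without the 20% of cells highest in other classes' markers. In pericytes and oligodendrocytes, Pdk1 fell under 50 UMIs in 3 of 9 alternatives each. Microglial markers were higher in these classes at 3 d, in pericytes at 518, 335 and 1480 CPM in sum with 12 of 12 higher, and their part in the result was not tested.

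Pfkfb3 makes fructose 2,6-bisphosphate, the strongest known activator of phosphofructokinase. It was highest in microglia, at 193, 202 and 192 CPM, which was 6.08 times the level of the next class in the naive library. Astrocytes were at 31.7, 56.0 and 32.6 CPM, with a 24 h ratio of 0.82 (0.53 to 1.11), and the 24 h library stood above both others. Oligodendrocytes were at 29.8, 15.8 and 16.9 CPM, with -0.91 (-1.71 to -0.19) at 24 h and -0.81 (-1.31 to -0.33) at 3 d, so that both TIA libraries were lower. Endothelial cells were at 10.8, 17.2 and 24.5 CPM, with 1.19 (0.36 to 2.10) at 3 d. The astrocyte value was 0.58 without the 5 cells with most Pfkfb3 UMIs. The same step gave -1.98 in oligodendrocytes at 24 h and 1.87 in endothelial cells at 3 d. The endothelial value was 0.67 without the 20% of cells highest in other classes' markers, which left fewer than 50 UMIs. The microglial markers in endothelial cells, higher at 3 d as given above for Hk2, stand beside this change too, and their part in the result was not tested. In oligodendrocytes 11 of 12 astrocyte markers were lower at 24 h, at 450 and 187 CPM in sum. Of the microglial markers there, 8 of 12 were lower, at 529 and 537 CPM in sum. Both sets were higher at 3 d, as given above, and their part in the Pfkfb3 values was not tested.

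Among the secreted hypoxia-inducible factors, Vegfa, which drives vessel growth, was an astrocyte gene. It was at 380, 371 and 295 CPM there, 15.9 times the naive level of the next class, neural progenitors, with log2 ratios of -0.03 (-0.14 to 0.07) at 24 h and -0.37 (-0.43 to -0.30) at 3 d. In microglia it stayed between 2.68 and 3.82 CPM in all libraries. In none of the 9 comparisons where it was measured was Vegfa at least 1.5-fold higher.

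Adm encodes adrenomedullin, a peptide that widens vessels. In endothelial cells it was at 40.9 CPM (31.0 to 53.0) in the naive library, 138 CPM (119 to 160) at 24 h and 71.6 CPM (61.9 to 82.3) at 3 d. None of these intervals overlapped, and the order was 24 h, then 3 d, then naive. The log2 ratios were 1.76 (1.32 to 2.21) and 0.81 (0.38 to 1.26), and both passed 1.5-fold in all 9 alternatives. Pericytes were at 34.5, 60.1 and 50.3 CPM, with 0.80 (0.11 to 1.53) at 24 h and 0.54 at 3 d. The pericyte value at 24 h was 0.53 with cells weighted equally and 1.43 without the 5 cells with most UMIs. Astrocytes held 2, 20 and 39 UMIs of Adm, too few to be measured, with the naive interval of 0.03 to 0.81 CPM below that of 4.30 to 10.9 CPM at 24 h. Of the 20 UMIs, 90.0% came from 5 cells. Oligodendrocytes held 0 UMIs in all 3 libraries.

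Bnip3 and Bnip3l tag mitochondria for removal. Bnip3 in endothelial cells was at 38.0 CPM (28.5 to 49.7) in the naive library, 89.7 CPM (74.1 to 108) at 24 h and 78.9 CPM (68.7 to 90.1) at 3 d. Both TIA libraries lay above the naive interval, while their own intervals overlapped. The log2 ratios were 1.24 (0.76 to 1.74) and 1.05 (0.61 to 1.52), past the limit in all 9 alternatives. In the other classes the Bnip3 ratio ranged from -0.20 in microglia to 0.45 in oligodendrocytes, both at 24 h. Bnip3l was highest in oligodendrocytes, at 502, 408 and 428 CPM, and its ratio stayed between -0.30 and 0.08 in all 13 comparisons. The Bnip3 share among both genes in endothelial cells was 10.8% (8.19% to 13.9%), 22.9% (19.3% to 26.8%) and 19.5% (17.2% to 21.9%).

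Ndrg1, a stress-responsive gene known from myelinating cells and from hypoxia, was highest in oligodendrocytes, at 749, 720 and 611 CPM. Endothelial cells came next, at 399 CPM (366 to 433), 669 CPM (625 to 715) and 559 CPM (532 to 588). The endothelial log2 ratio was 0.75 (0.59 to 0.90) at 24 h, past the limit in all 9 alternatives, and 0.49 (0.35 to 0.63) at 3 d. Astrocytes and microglia held at most 3.06 CPM in any library. Adm, Bnip3 and Ndrg1 were thus each highest at 24 h in endothelial cells, with 3 d between 24 h and naive.

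**Figure D3:**
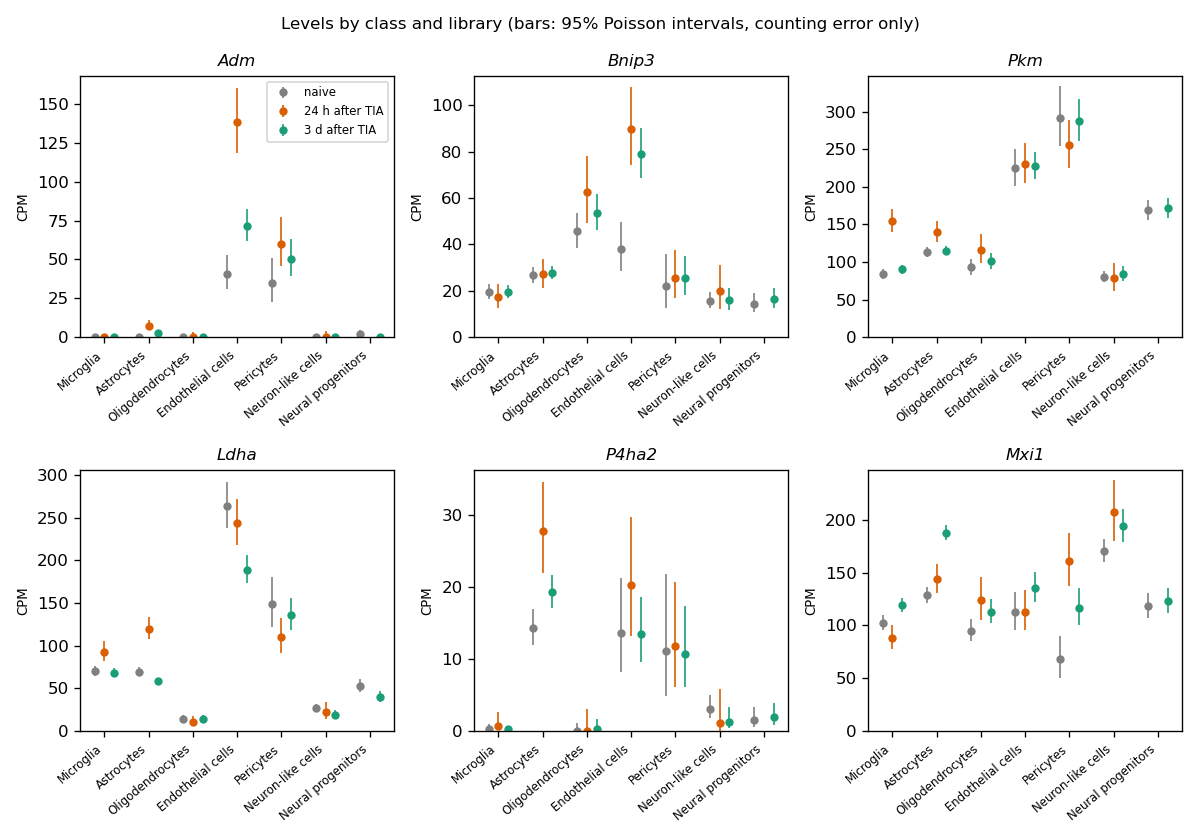
CPM (vertical axes) of 6 genes by cell class (horizontal axes) in the naive, 24 h and 3 d libraries, with 95% Poisson intervals that cover counting error only. Adm and Bnip3 in endothelial cells, Pkm in microglia, Ldha and P4ha2 in astrocytes and Mxi1 in pericytes stood above naive at 24 h.

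Mxi1 encodes a repressor that opposes Myc. In pericytes it was at 67.7 CPM (50.1 to 89.5), 161 CPM (137 to 187) and 117 CPM (100 to 136), so that both TIA libraries lay above the naive interval. The log2 ratios were 1.25 (0.78 to 1.74) at 24 h and 0.79 (0.32 to 1.27) at 3 d. The 24 h value passed the limit in all 9 alternatives, while the 3 d value was 0.57 with doublets left out, 0.58 without the 20% of cells highest in other classes' markers and 0.57 with cells weighted equally. In pericytes at 3 d, 12 of 12 microglial markers (518, 335 and 1480 CPM in sum) and 11 of 12 astrocyte markers (1360, 813 and 2280 CPM) were higher, and their part in the result was not tested. Naive pericytes had the lowest Mxi1 of the 7 classes and neuron-like cells the highest, at 170 CPM. Astrocytes were at 129, 144 and 188 CPM, with a 3 d ratio of 0.54 (0.44 to 0.64), under the limit.

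P4ha1 and P4ha2 are alternative catalytic subunits of the enzyme that hydroxylates collagen. P4ha2 in astrocytes was at 14.3 CPM (11.9 to 17.0), 27.8 CPM (22.0 to 34.6) and 19.3 CPM (17.1 to 21.7), with ratios of 0.96 (0.54 to 1.38) at 24 h and 0.44 (0.13 to 0.75) at 3 d. The 24 h value stayed past 1.5-fold in all 10 alternatives. P4ha1 was highest in microglia, at 263, 162 and 206 CPM, and was lower at 24 h by -0.70 (-0.85 to -0.55), also in all 10 alternatives, with -0.35 at 3 d. In astrocytes it was at 178, 144 and 157 CPM, with ratios of -0.31 and -0.18. The P4ha1 share among both genes in astrocytes was 92.6%, 83.8% and 89.0%, lowest at 24 h.

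Ankrd37, an ankyrin repeat gene of unclear function that responds to HIF, was endothelial, at 86.1, 87.4 and 75.6 CPM, 8.9 times the naive level of pericytes. At lower levels it was higher at 3 d in astrocytes, at 1.35, 2.82 and 3.32 CPM with a ratio of 1.30 (0.36 to 2.35), and in oligodendrocytes, at 6.08, 10.8 and 10.6 CPM with 0.81 (-0.02 to 1.67). Endothelial markers were higher at 3 d in both, with 8 of 10 in astrocytes (21.7, 15.8 and 33.2 CPM in sum) and 9 of 10 in oligodendrocytes (79.0, 9.99 and 161 CPM), led by Flt1. Their part in the result was not tested. Ankrd37 fell under 50 UMIs in 1 of 10 alternatives in astrocytes and in 2 of 9 in oligodendrocytes.

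Higd1a, a small mitochondrial protein of the respiratory chain, was at 36.1, 58.0 and 42.6 CPM in microglia, with a 24 h ratio of 0.68 (0.40 to 0.97). This value was 0.54 with cells weighted equally and 0.55 with each cluster given the same weight in every library. Astrocytes, at 80.2, 107 and 75.0 CPM, and oligodendrocytes, at 72.6, 97.4 and 69.5 CPM, had 24 h ratios of 0.42 and 0.42. Ndufa4l2, which takes part in lowering respiration under hypoxia, was the most class-bound of the 33 genes. It was at 1375, 1409 and 1092 CPM in pericytes and 7.89, 5.46 and 5.11 CPM in endothelial cells, a naive ratio of 174, and its pericyte log2 ratios were 0.04 (-0.08 to 0.15) and -0.33 (-0.45 to -0.22).

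Across the 7 classes of the naive library, 8 members were highest in astrocytes, 7 in endothelial cells, 6 in microglia, 5 in pericytes, 3 in oligodendrocytes, 3 in neural progenitors and 1 in neuron-like cells. The class with the highest level was the same in all 3 libraries for 25 of the 33. Cells were clustered on 2000 variable features, and 6 members (Adm, Hk2, Ndrg1, Ndufa4l2, Pfkfb3 and Vegfa) were among these, so that these class patterns are a description.

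By role, the median log2 ratio of the measured glycolytic enzymes at 24 h was 0.25 in microglia, 0.30 in astrocytes, 0.41 in oligodendrocytes, 0.07 in endothelial cells, -0.10 in pericytes and -0.31 in neuron-like cells. Over all genes the medians were 0.05, 0.02, -0.02, -0.01, 0.00 and -0.03. At 3 d the enzyme medians lay between -0.15 in endothelial cells and 0.14 in oligodendrocytes. For the other hypoxia-inducible genes the 24 h median was 0.24 in endothelial cells, 0.02 in astrocytes, 0.02 in pericytes, -0.06 in oligodendrocytes, -0.19 in neuron-like cells and -0.20 in microglia. The 3 d medians of that group were 0.27 in endothelial cells, 0.27 in pericytes, 0.22 in microglia, 0.12 in progenitors, 0.06 in neuron-like cells, -0.06 in astrocytes and -0.09 in oligodendrocytes. Over all genes the 3 d medians lay between 0.03 in neuron-like cells and 0.06 in microglia. The medians over the measured members ran from -0.30 in neuron-like cells to 0.23 in astrocytes at 24 h, and from -0.05 in pericytes to 0.09 in neural progenitors at 3 d.

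Other genes of the same pathways were read from 4 further lists. For comparison, the shares of all measured genes that were higher and lower at 24 h were 7.59% and 4.99% in microglia, 8.6% and 12% in astrocytes, 9.3% and 12.6% in oligodendrocytes, 7.71% and 7.39% in endothelial cells, 7.84% and 6.17% in pericytes and 4.03% and 14.6% in neuron-like cells. At 3 d they were 4.0% and 2.19%, 3.81% and 2.76%, 9.07% and 3.43%, 9.5% and 4.24%, 13.1% and 4.84% and 1.87% and 4.89% in the same order, and 4.6% and 2.99% in progenitors. Of 18 genes for glucose entry, lactate transport and pyruvate use, endothelial cells at 24 h had 3 of 10 measured genes higher and 0 lower, among them the glucose carrier Slc2a1, at 1308 CPM in naive cells and 3372 CPM at 24 h (log2 ratio 1.37, 1.29 to 1.45), and the lactate carrier Slc16a1, with 0.88. Microglia had 2 of 15 higher and 2 lower at 24 h, with the glucose carrier Slc2a3 at 2.33 and the fructose carrier Slc2a5 at -0.97, and 2 of 16 higher and 1 lower at 3 d, with Slc2a3 at 1.82. Astrocytes had 3 of 16 higher and 2 lower at 24 h, and 1 of 18 and 1 at 3 d. Oligodendrocytes had 1 of 13 higher and 3 lower at 24 h, where Pdk4, which also restrains pyruvate oxidation, had a ratio of 3.61, and 1 of 13 and 0 at 3 d. Endothelial cells at 3 d had 1 of 12 higher and 1 lower, pericytes 0 of 8 and 1 at 24 h and 0 of 9 and 1 at 3 d, neuron-like cells 0 of 13 and 1 at 24 h and 2 of 15 and 2 at 3 d, and progenitors 0 of 15 and 0. The carriers named as higher in endothelial cells were each lower in another class. Slc16a1 was lower in oligodendrocytes at 24 h (-0.85), and Slc2a1 in neuron-like cells at 24 h (-1.89) and 3 d (-0.73). Slc2a1 there had only 64 UMIs in naive cells and 3 at 24 h. Endothelial markers were lower in the same comparisons. They summed to 79.0 and 9.99 CPM in naive and 24 h oligodendrocytes, and to 134, 11.5 and 21.0 CPM in the neuron-like cells of the 3 libraries. Their part in the result was not tested.

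Of 45 other HIF pathway and target genes, higher and lower counts at 24 h were 5 and 0 of 26 in microglia, 7 and 2 of 31 in astrocytes, 7 and 0 of 20 in oligodendrocytes, 5 and 1 of 27 in endothelial cells, 6 and 1 of 21 in pericytes and 1 and 4 of 24 in neuron-like cells. At 3 d they were 4 and 0 of 27, 1 and 2 of 33, 7 and 1 of 23, 3 and 0 of 27, 5 and 0 of 26 and 0 and 3 of 25 in the same order, and 1 and 1 of 25 in progenitors. Over all measured genes, 4.03% to 9.3% were higher and 4.99% to 14.6% lower at 24 h, and 1.87% to 13.1% and 2.19% to 4.89% at 3 d, with the highest share of lower genes at 24 h in neuron-like cells. Ddit4, an inhibitor of mTOR signalling, was higher at 24 h in microglia (4.07), oligodendrocytes (3.37), pericytes (2.65) and endothelial cells (2.14). At 3 d it was still higher in microglia (3.16) and pericytes (1.56). Angptl4, a secreted inhibitor of lipoprotein lipase, went from 8.61 to 129.5 CPM in endothelial cells at 24 h, a ratio of 3.91 (3.07 to 4.89), and from 1 to 248 UMIs in pericytes, a ratio of 7.47 (4.98 to 12.78). Angptl4 was also higher in endothelial cells at 3 d, at 37.2 CPM, a ratio of 2.11 (1.25 to 3.11). In astrocytes at 3 d it was lower, at 27.4 CPM in naive cells and 17.4 CPM at 3 d, a ratio of -0.66 (-0.92 to -0.40). Hif3a, a HIF alpha subunit known to restrain the others, was higher in astrocytes by 1.95 at 24 h and 1.76 at 3 d, and in oligodendrocytes by 4.43 and 3.74.

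Of 23 other glycolysis and glycogen genes, higher and lower counts at 24 h were 2 and 3 of 14 in microglia, 5 and 1 of 14 in astrocytes, 1 and 1 of 5 in oligodendrocytes, 0 and 0 of 3 in endothelial cells, 2 and 0 of 4 in pericytes and 1 and 1 of 10 in neuron-like cells. At 3 d they were 0 and 1 of 15, 1 and 1 of 16, 0 and 0 of 8, 0 and 0 of 7, 3 and 0 of 5 and 0 and 2 of 11, and 2 and 0 of 10 in progenitors. Beside these counts stand shares over all genes of 7.59% higher and 4.99% lower in microglia and 8.6% and 12% in astrocytes at 24 h, and lists of 3 to 16 measured genes hold too few for a comparison. Pfkfb4, a relative of Pfkfb3, was lower in astrocytes at 24 h, at 61.2 and 26.4 CPM (-1.22, -1.58 to -0.86), while Pygm, which breaks down glycogen, was higher, at 35.4 and 75.0 CPM (1.08). Of 28 genes of the citrate cycle and respiratory chain, at most 2 passed 1.5-fold in either direction in any comparison, with 2 and 0 higher and lower in microglia, 1 and 0 in astrocytes, 1 and 0 in oligodendrocytes, 0 and 0 in endothelial cells, 0 and 1 in pericytes and 0 and 2 in neuron-like cells at 24 h. At 3 d the counts were 0 and 0, 0 and 0, 0 and 0, 0 and 1, 0 and 2 and 0 and 1, and 0 and 0 in progenitors. Over all genes, the shares lay between 1.87% and 14.6%.

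The promoters of the members were read because many of them are known HIF targets. HIF binds a core written ACGTG or GCGTG, and both were searched on both strands in windows of 300 bases around each start, taken from RefSeq on GRCm38.p6. Entries matched 29 of the 33 members, with 42 promoters, and Epas1, Bnip3l, Ndrg1 and Ndufa4l2 had none. A match was present in 34 of the 42 promoters (81.0%) and in at least 1 promoter of 27 of the 29 members (93.1%), against 14380 of 32851 promoters (43.8%) and 12628 of 27025 genes (46.7%) in the whole table. At least 2 matches were found in 59.5% of member promoters and 20.6% of all promoters. Both cores contain the bases CG, and the whole table was not matched to the members in base composition. The difference in shares is therefore a description, and its cause was not tested. Any entry under a member's symbol on a chromosome that holds no member was left out of the member set. Gpi1 and Tpi1 had no match in these windows.

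The promoters of 4 members that were higher at 24 h in endothelial cells (Adm and Bnip3) or astrocytes (Ldha and P4ha2) are printed to show how the matches lie. Capitals mark the matches on either strand, each sequence runs 5′ to 3′ on its gene's strand, and a match is not a binding site. A CACGTG matches on both strands and counts as 2. The windows are chr7:110627407-110627706 on the plus strand with 2 matches for Adm (ENSMUSG00000030790), chr7:138909457-138909756 on the minus strand with 5 for Bnip3 (ENSMUSG00000078566), chr7:46845554-46845853 on the plus strand with 7 for the first of 2 promoters of Ldha (ENSMUSG00000063229), and chr11:54100674-54100973 on the plus strand with 4 for P4ha2 (ENSMUSG00000018906).
Adm: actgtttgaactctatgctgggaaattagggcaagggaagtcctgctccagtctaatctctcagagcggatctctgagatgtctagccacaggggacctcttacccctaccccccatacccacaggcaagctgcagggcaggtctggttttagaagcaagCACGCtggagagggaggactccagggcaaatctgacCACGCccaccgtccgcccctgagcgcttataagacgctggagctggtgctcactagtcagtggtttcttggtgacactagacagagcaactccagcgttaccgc
Bnip3: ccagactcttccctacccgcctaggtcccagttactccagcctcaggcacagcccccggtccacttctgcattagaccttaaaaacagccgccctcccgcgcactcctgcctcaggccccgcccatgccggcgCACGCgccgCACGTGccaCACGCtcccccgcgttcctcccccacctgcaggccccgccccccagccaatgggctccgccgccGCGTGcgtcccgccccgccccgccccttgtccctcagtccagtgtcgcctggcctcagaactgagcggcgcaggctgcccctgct
Ldha: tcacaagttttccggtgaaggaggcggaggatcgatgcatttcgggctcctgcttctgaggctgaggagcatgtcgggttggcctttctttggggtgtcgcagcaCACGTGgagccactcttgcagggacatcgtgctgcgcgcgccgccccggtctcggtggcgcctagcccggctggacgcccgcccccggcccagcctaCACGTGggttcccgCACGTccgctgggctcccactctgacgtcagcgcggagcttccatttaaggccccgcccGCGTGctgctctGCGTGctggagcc
P4ha2: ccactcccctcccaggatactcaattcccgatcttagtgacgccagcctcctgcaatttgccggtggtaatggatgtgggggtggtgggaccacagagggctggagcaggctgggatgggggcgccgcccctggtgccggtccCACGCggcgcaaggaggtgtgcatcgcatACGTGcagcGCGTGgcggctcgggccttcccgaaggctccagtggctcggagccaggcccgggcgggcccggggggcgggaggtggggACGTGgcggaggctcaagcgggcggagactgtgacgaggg
Counted in this way, the 7 matches of Ldha were the most among the members, while 17 were the most in any promoter of the table. Pfkfb3, which was higher in astrocytes and lower in oligodendrocytes at 24 h, had up to 4 matches in a promoter.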

How the data were processed

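Each of the 3 samples was a pool of 3 mice and gave 1 single-cell library, so cells and not animals are the units within a group. The deposited matrices hold UMI counts per gene and cell, which the authors made with Cell Ranger on mm10; the file header names version 7.1.0 and the labels 3.1.0, and whether intronic reads were counted is not given in the sources used here. Cells with at least 500 genes and at most 7% mitochondrial UMIs were kept. Genes found in at least 3 cells were normalized and clustered in Seurat 5.3.0 (R 4.3.3) with 2000 variable features, 20 principal components and resolution 0.5. Naming a cluster took 3 or more markers of a type, each present in 10% or more of its cells and 2-fold or more above the other clusters. The type with most markers gave the name, except that a neuronal cluster with 3 or more progenitor markers and Top2a and Mki67 in 10% or more of its cells was named progenitors. A cluster stayed unnamed if its depth was under 1/3 of the library median and none of its leading 10 genes was a marker of its type, or if those genes held more markers of another type. The unnamed clusters, the fibroblasts and a mixed cluster named red blood cells, with 495, 84 and 426 cells together, were not compared.

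UMIs were summed per class and library and scaled to CPM in Python 3.11.15 with numpy 2.4.6, scipy 1.17.1 and pandas 2.3.3, and figures were drawn in matplotlib 3.10.9. Levels have exact Poisson intervals and ratios exact conditional binomial intervals. Where 1 of the libraries held 0 UMIs, 3 UMIs were put in its place, which gives a lower bound, and no ratio was taken where both libraries were at or below 3. No test between groups was made, since each had 1 library. Background shares are those of all genes measured in the same class and comparison.

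The 33 members and the 4 further lists, with 114 genes, were chosen with earlier results of these data known. From the further lists, the genes named were picked among those that had, in a class and time, the highest or lowest 2 ratios past 1.5-fold; all members are named. Alternatives were a literal reading of the cell filter, resolutions 0.2 and 1, members left out of the variable features, doublets called by Scrublet in scanpy 1.11.5 left out (119, 7 and 142 cells), median-ratio scaling, at least 100 UMIs, a 2-fold limit, cells weighted equally, each cluster given the same weight in every library, each gene without its 5 highest cells, and cells with at most 1 UMI of other classes' markers. After the data had been seen, leaving out the 20% of cells highest in such markers was added.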

Additional observations from a re-analysis of the deposited data

Results flagged for a closer look

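Changes that ran in opposite directions between classes or between times were picked out for a closer look. At 24 h, Hk2 was higher in astrocytes (log2 ratio 0.69) and lower in neuron-like cells (-1.94, with the 24 h library set to the floor of 3 UMIs). Pfkfb3 was higher in astrocytes (0.82) and lower in oligodendrocytes (-0.91) at 24 h. At 3 d it was higher in endothelial cells (1.185) and lower in oligodendrocytes (-0.81).

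Aldoc differed between times. In microglia it was lower at 24 h (-1.495) and higher at 3 d (0.64), and in pericytes it was lower at 24 h (-2.63) and higher at 3 d (0.70). Each group had 1 library, so none of these differences was tested.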

How the results depend on the processing

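Of 48 member changes past 1.5-fold, 44 kept their direction and 22 stayed past 1.5-fold in every alternative that gave a ratio, the limits of 100 UMIs and 2-fold left aside. Of the 48, 17 also kept at least 50 UMIs in all of these, 16 passed with at least 100 UMIs as well, and 7 passed the 2-fold limit too. The other 4 turned. For Hk2 in endothelial cells at 3 d the ratio was -0.898 under the literal cell filter, -0.908 with doublets left out, -0.915 without the 20% of cells highest in other classes' markers and -0.329 with cells weighted equally. Aldoc in progenitors was at -0.078 at resolution 0.2. Vegfa in neuron-like cells at 24 h was at 0.768 with doublets left out and 0.986 without the 20%, and Epas1 there was at 0.123 without the 20%. Apart from the values at resolution 0.2 and with cells weighted equally, these come from fewer than 50 UMIs. The cause was not tested.

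Counts of changed members, higher and lower together, that moved by more than 1.5 times were as follows. Smaller moves are left out, such as those of endothelial cells at 24 h, which had 3 to 6 over all settings. Under the literal filter, neuron-like cells at 3 d went from 0 to 1, and with median-ratio scaling also to 1. At resolution 0.2, progenitors went from 3 to 5. With doublets left out, oligodendrocytes at 3 d went from 5 to 3, neuron-like cells from 8 to 3 at 24 h and from 0 to 2 at 3 d, and progenitors from 3 to 5. Without the 20%, a setting chosen after the data had been seen, these went to 3, 3, 2 and 5, and at 3 d microglia went from 3 to 1, astrocytes from 1 to 2 and pericytes from 3 to 1. With cells weighted equally, microglia at 24 h went from 6 to 3, astrocytes at 3 d from 1 to 2, oligodendrocytes at 24 h from 2 to 5, pericytes at 3 d from 3 to 0, neuron-like cells at 3 d from 0 to 1 and progenitors from 3 to 6. With each cluster given the same weight in every library, microglia at 24 h went from 6 to 2. Shares over all genes moved as well. In progenitors, 4.6% higher and 2.99% lower became 6.27% and 4.39% with cells weighted equally. In neuron-like cells at 24 h, 4.03% and 14.6% became 4.27% and 9.41% with doublets left out. In pericytes at 3 d, 13.1% and 4.84% became 8.09% and 4.25% without the 20%. The cause was not tested.

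Stricter limits call fewer genes by construction. With a 2-fold limit, microglia at 24 h went from 6 to 1, astrocytes at 24 h from 4 to 0, oligodendrocytes from 2 to 0 at 24 h and 5 to 1 at 3 d, endothelial cells at 3 d from 6 to 2, pericytes at 3 d from 3 to 0 and progenitors from 3 to 1. With at least 100 UMIs, microglia at 3 d went from 3 to 1, astrocytes at 3 d from 1 to 0, oligodendrocytes from 2 to 1 at 24 h and 5 to 2 at 3 d, endothelial cells at 3 d from 6 to 3, pericytes at 24 h from 3 to 1 and neuron-like cells at 24 h from 8 to 4.

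The median of the lactate, pyruvate and flux genes moved in oligodendrocytes at 3 d from 0.129 to -0.486 with doublets left out and -0.692 without the 20%, and in microglia at 3 d from -0.049 to 0.279 in cells with at most 1 UMI of other classes' markers. In endothelial cells it moved from -0.914 to -0.039 without the 20% and to -0.113 with at least 100 UMIs at 24 h, and from 0.241 to -0.394 without the 20% at 3 d. In progenitors it moved from 0.164 to -0.392 without the 20%. The median of the other hypoxia-inducible genes in oligodendrocytes at 24 h moved from -0.058 to 0.297 with cells weighted equally. The cause was not tested.

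Resolution 1 and leaving members out of the variable features moved no count by more than 1.5 times, and the latter took Epas1 in neuron-like cells at 24 h from -3.234 to -2.243. Weighting of clusters applied only to microglia and astrocytes. The limit of 1 UMI left at least 50 cells in both libraries only for microglia at 3 d and gave no value elsewhere. The 24 h library had the fewest cells and UMIs, which limits rare genes there most. It also had fewer called doublets, 0.571% of cells, against 2.96% in the naive and 2.97% in the 3 d library. Markers of other classes were often lower there than in naive cells, such as microglial markers in neuron-like cells (924 and 173 CPM). Others were not, such as astrocyte markers in microglia (385 and 446 CPM). What this means for the 24 h ratios was not tested.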
